A study of Homo sapiens with 8 samples.

Results

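Chromosome 19 of the human genome carries 247 annotated protein-coding genes whose symbols start with ZNF, and 34 of them (13.8%) overlapped at least 1 peak of N4-acetylcytidine (ac4C) enriched RNA in the osteosarcoma cell lines 143B and HOS. The 247 follow from symbol and position, and the 34 are those with a peak in these libraries. A peak was given to a gene when that gene was the single protein-coding GRCh38 gene it overlapped. The rule gave 53 peaks out of 1005 on chromosome 19 and 31395 in all. The short arm held 8 of the genes and 11 of the peaks, and the long arm held 26 genes and 42 peaks.

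C2H2 zinc finger proteins bind DNA through tandem zinc fingers, and the genes of chromosome 19 lie in clusters that arose by repeated local duplication. Many of the encoded proteins carry a KRAB domain, which recruits the co-repressor TRIM28 and, through it, the histone methyltransferase SETDB1 and HP1 proteins. This machinery silences transposable elements, and ZNF91, for example, binds SVA elements. ac4C is an acetylated cytidine that the acetyltransferase NAT10 writes into rRNA, tRNA and, as reported, mRNA.

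The study sequenced mRNA fragments captured with an anti-ac4C antibody (acRIP) from both lines, each in a form labelled sgNAT10, described as a NAT10 knockout, and a control form labelled NC. 143B is a line derived from HOS, so the lines share an origin. The count tables held 1 library of each form per line, 4 in all, and whether the knockouts were single clones or pools was not given in the sources used here. Matched inputs were not used here, so less RNA from a gene, less ac4C on it and fewer cells with that RNA cannot be told apart.

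Counts over peaks totalled 20107718 to 24785306 per library. NAT10 itself had 130 counts in the 143B library labelled sgNAT10 and 65 in 143B NC. It had 63 in HOS sgNAT10 against 180 in HOS NC. After TMM scaling the log2 differences, sgNAT10 minus NC, were 0.50 in 143B and -1.85 in HOS. The counting interval of the 143B value began at 0.06. These are antibody-captured counts over 1 peak without input, so they cannot decide whether the knockout label holds in either line. Directions in 143B are therefore those of the library labelled sgNAT10. That library stood apart: its Spearman correlation with the others over all peaks was 0.583 to 0.718, against 0.803 to 0.865 among the other 3. With TMM scaling computed over the HOS libraries alone, an alternative added after the data were seen, the HOS shift of each of the 23 genes named by rule kept its sign. The fits across lines use all 4 libraries. Of the osteoblast markers, 4 of 9 had a peak (RUNX2, SP7, ALPL and SPARC, with 671 to 1377 counts together per library) and BGLAP, SPP1, COL1A1, COL1A2 and IBSP had none. Mesenchymal markers had peaks in 2 of 4 genes, with 7144 to 21438 counts. Epithelial markers had peaks in 3 of 5 genes with 1277 to 2513 counts, blood markers in 1 of 4 with 2 to 22, and endothelial markers in 1 of 3 with 18 to 855. CDH1 had 812 counts in HOS sgNAT10 against 5 in HOS NC, and KDR had 855 against 18. The other epithelial markers with a peak went the other way in HOS. KRT8 had 460 counts in sgNAT10 against 675 in NC, and KRT18 had 1220 against 1511. The part of these genes in the HOS values was not tested.

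A smaller share of these genes than of other genes had a peak. Other protein-coding genes of chromosome 19 had a peak in 332 of 1199 cases (27.7%), and ZNF genes of other chromosomes in 66 of 265 (24.9%). Within chromosome 19, 8 of 83 short-arm ZNF genes (9.64%) and 26 of 164 long-arm ZNF genes (15.9%) had one. Genes closer than 1 Mb to each other were joined into clusters of at least 3 genes, which gave 4 clusters on the short arm (S1 to S4, from the telomere) and 6 on the long arm (L1 to L6). S4, the cluster near the centromere at 19.7 to 24.1 Mb, had peaks in 5 of 37 genes. L6, at 55.5 to 58.5 Mb, had them in 7 of 60. L1 had peaks in 2 of 5 genes and L4 in 6 of 24, whereas S1 and L3 had none in 5 and 3 genes. Outside the clusters, 4 of 7 long-arm genes had a peak, and these 4 held 20 of the 42 long-arm peaks.

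**Figure D1:**
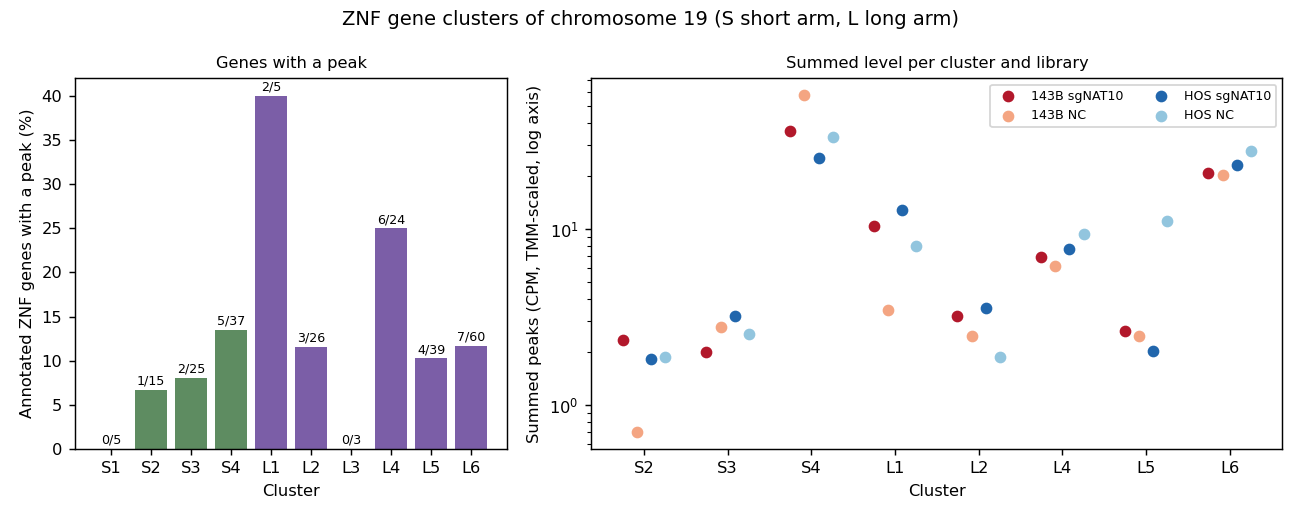
Left, share (percent) of annotated ZNF genes of chromosome 19 with an ac4C peak, by cluster along the chromosome. Numbers above the bars are genes with a peak out of annotated genes. Right, CPM after TMM scaling (log axis) of the summed peaks of each cluster with a peak, in the 4 libraries. S4 has a peak in 5 of 37 genes and L6 in 7 of 60, while S1 and L3 have none.

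Most of the peaks were small and lay inside the gene. Of the 53 peaks, 49 were internal, 1 lay at a gene start (ZNF540) and 3 at a gene end (ZNF581, ZNF787 and ZNF444), within 500 bp, so 7.55% were near an end, against 11.8% over all protein-coding genes. Their median width was 116 bp, against 177 bp on other protein-coding genes of chromosome 19 and 135 bp over all peaks. Their median mean count was 19.5, against 83.25 for those other chromosome 19 peaks and 23.5 over all peaks. In 42 of 53 member peaks (79.2%) the mean count was under 50, against 69.2% of all peaks. Counting error was therefore large for most member peaks.

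The ZNF540 peak was the one member peak that reached into a promoter window. ZNF540 encodes a KRAB zinc finger protein and lies on the plus strand. The window below is the RefSeq sequence of chr19:37551124-37551423 (GRCh38.p14, plus strand, 5′ to 3′), from 250 bases before to 50 after the gene start, with the 34 bases covered by the peak (positions 37551390 to 37551591 in the deposited table) in capitals. It is shown because it places the peak beside the gene start.
ZNF540 promoter: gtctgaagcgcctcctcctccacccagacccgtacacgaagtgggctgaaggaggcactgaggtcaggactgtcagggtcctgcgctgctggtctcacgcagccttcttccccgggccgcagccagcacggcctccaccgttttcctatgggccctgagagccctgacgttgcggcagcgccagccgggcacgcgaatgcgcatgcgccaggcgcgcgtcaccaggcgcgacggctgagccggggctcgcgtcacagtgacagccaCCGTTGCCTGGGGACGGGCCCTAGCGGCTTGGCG
The window had a GC content of 69.7% and 30 CpG sites. The repeat CNNCNNCNNCNNCNN, a spacing of cytidines reported for ac4C, occurred 4 times on its plus strand and 1 time on its minus strand, overlaps included, and 0 times within the capitals. On the strand of the gene, 53.8% of the 39 windows matched to member genes held the repeat, against 46.5% for chromosome 19 ZNF genes without a peak and 50% (17561) of all 35097 windows. Windows with the repeat on either strand made up 33 of 39 (84.6%) of those matched to member genes, 76.1% of those of chromosome 19 ZNF genes without a peak and 71.0% of all windows. The median GC content of these sets was 62.3%, 59.3% and 58.7%, in that order, and its part was not tested. The 39 windows belonged to 30 member genes. No member peak but that of ZNF540 reached into them, so these shares do not describe the peaks. The ZNF540 peak had 61 counts in 143B sgNAT10 and 40 in 143B NC, and 39 in HOS sgNAT10 and 28 in HOS NC. After scaling, these are log2 shifts of 0.11 and 0.12, and both counting intervals include 0. Its locus overlaps the antisense gene ZNF571-AS1, from which its reads cannot be told apart.

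Here and below, a shift is the difference in log2 CPM (counts scaled to library size by TMM, with a prior count of 1), sgNAT10 minus NC within a line. The interval after it covers 95% counting error only. With raw library totals in place of TMM, shifts of genes with many counts are higher by 0.34 in 143B and by 0.58 in HOS, and those of genes with few counts by less, so small negative HOS shifts, that of the S4 cluster included, change sign. Reads from near-identical ZNF copies could be split or lost, and how such reads were counted was not given in the sources used here. ZNF114 and ZNF880 overlap antisense genes, and without strand the reads of both cannot be told apart.

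Across both lines, no ZNF gene of chromosome 19 passed the test for a difference between sgNAT10 and NC. The edgeR quasi-likelihood test with line as a block left 0 of 27 tested genes called, with adjusted p between 0.985 and 1.0, and the background was 0.0% of the 8157 genes tested in either direction. 1 member, ZNF90, was under an unadjusted 0.05, with a fitted log2 fold change of 2.60 ± 1.003 SE. DESeq2 and limma-trend also called 0, with 1 member each under an unadjusted 0.05. Of 53 peaks, 40 were tested and 0 were called by edgeR (adjusted p 0.981 to 0.999), with 0 at an unadjusted p under 0.05 and a background of 0.0%. The lines serve as the replicates in this fit, which leaves 1 residual degree of freedom.

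Set side by side, the median over the 34 genes was 0.37 in 143B and 0.02 in HOS, against 0.28 and 0.07 over all 9098 genes with a peak. Other protein-coding genes of chromosome 19 had medians of -0.27 and -0.16, and ZNF genes of other chromosomes had 0.31 and 0.36. The median mean count was 19.5 for members, 125.875 for other chromosome 19 genes and 43.875 for ZNF genes of other chromosomes. Over peaks of protein-coding genes other than members, shifts fell with count. Their medians in 143B and HOS were 0.65 and 0.57 below a mean count of 20, and -0.68 and -0.16 at 50 or more. Member peaks did not show that fall in HOS. Below 20, from 20 to below 50 and at 50 or more, member medians were 0.74, -0.25 and 0.09 in 143B. In HOS they were 0.06, -0.05 and 0.30. The part of count in the medians over genes was not tested. In 143B, 23 members were higher in sgNAT10 and 11 lower, where 59.4% of all genes were higher. In HOS 17 were higher and 17 lower, where 52.8% of all genes were higher. At least a 2-fold difference was seen upward in 8 members and downward in 5 in 143B, with backgrounds of 25.6% and 16.8%. In HOS it was seen upward in 4 and downward in 5, with backgrounds of 19.1% and 12.7%. Members were higher in both lines in 11 cases and lower in both in 5, where 32.0% and 19.7% of all genes were.

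**Figure D2:**
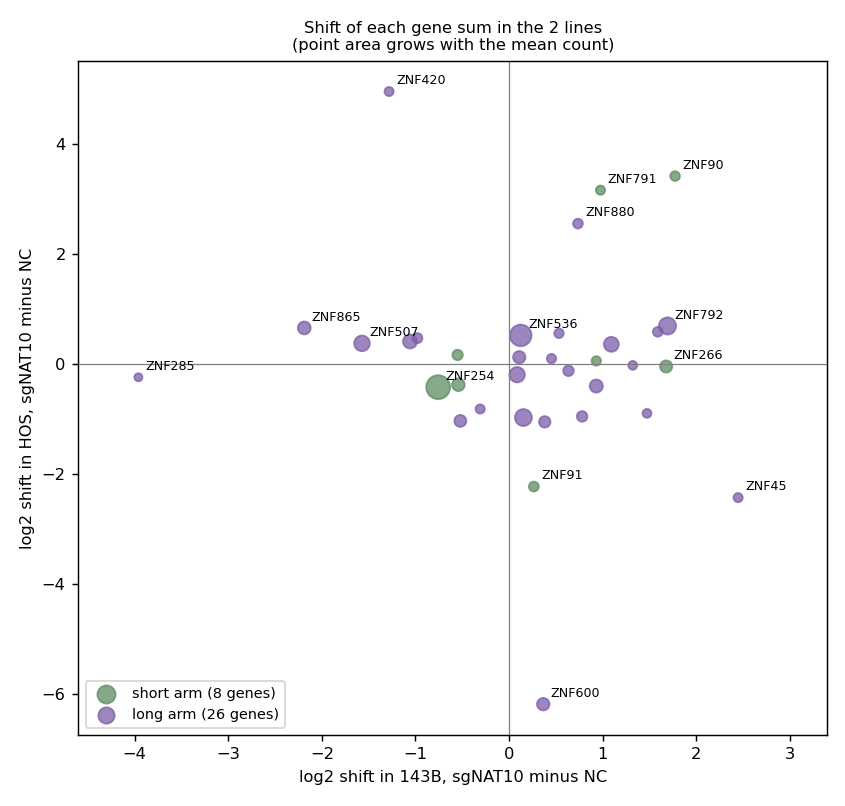
Log2 shift, sgNAT10 minus NC, of each ZNF gene of chromosome 19 in HOS (vertical axis) against 143B (horizontal axis), coloured by arm. ZNF90 and ZNF792 lie above 0 on both axes, ZNF254 below 0 on both, and ZNF600 has the lowest HOS value, -6.18.

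In 143B the counting interval excluded 0 upward in 7 members and downward in 6, where it did so in 36.9% and 26.4% of all genes. In HOS it excluded 0 upward in 8 and downward in 7, with backgrounds of 25% and 25.1%. It did so in the same direction in both lines for 3 genes: upward for ZNF90 and ZNF792, downward for ZNF254, where 7.51% of all genes did so upward and 8.0% downward. In ZNF507, ZNF45 and ZNF865 it excluded 0 in opposite directions, as it did in 20.1% of all genes.

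Short-arm counts were dominated by ZNF254, a zinc finger gene of the S4 cluster. It had 921 counts in 143B sgNAT10 and 1103 in 143B NC, and 538 in HOS sgNAT10 and 565 in HOS NC. After scaling it was lower in the library labelled sgNAT10 in both lines, with shifts of -0.76 [-0.89, -0.63] and -0.42 [-0.59, -0.25]; the fit across lines gave a log2 fold change of -0.59 (edgeR adjusted p = 0.985). Nearly all of this came from 1 peak at chr19:24037062-24037247, with 886 and 1084 counts in 143B and 510 and 531 in HOS, sgNAT10 first in each. That peak made up 78.1% of short-arm member counts in 143B sgNAT10 and 89.1% in 143B NC, and 73.1% in HOS sgNAT10 and 78.0% in HOS NC. With the library totals as the only scaling, ZNF254 had a HOS shift of 0.16.

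ZNF90, also in S4, had 32 counts in 143B sgNAT10 and 6 in 143B NC, and 10 in HOS sgNAT10 against 0 in HOS NC. It was higher in sgNAT10 in both lines, by a shift of 1.77 [0.64, 3.47] in 143B. In HOS it was 2.61-fold higher with the NC count set to a floor of 3. The counting interval of its HOS shift began at 0.81. ZNF91, a repressor of SVA elements, had 24 counts in 143B sgNAT10 and 14 in 143B NC, but 3 in HOS sgNAT10 and 14 in HOS NC. Its shifts were 0.26 [-0.73, 1.34] and -2.23 [-5.01, -0.73], so counting error excluded 0 in HOS only. ZNF738 had 16 and 17 counts in the sgNAT10 and NC libraries of 143B, and 23 and 16 in those of HOS. Neither of its intervals excluded 0, and the same held for ZNF253, with 6 to 20 counts per library.

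In S2 the single gene with a peak was ZNF266, which had 66 counts in 143B sgNAT10 and 14 in 143B NC, and 42 in HOS sgNAT10 and 34 in HOS NC. The shift was 1.68 [0.89, 2.69] in 143B and -0.05 [-0.73, 0.65] in HOS. In S3, ZNF823 had 52 and 54 counts in 143B sgNAT10 and NC, and 43 and 44 in HOS sgNAT10 and NC. After scaling its shifts were -0.54 [-1.13, 0.02] and -0.38 [-1.03, 0.26]. The other S3 gene, ZNF791, had 4 counts in 143B sgNAT10 and 1 in 143B NC, and 31 in HOS sgNAT10 against 2 in HOS NC, so 1 library held most of its reads.

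**Figure D3:**
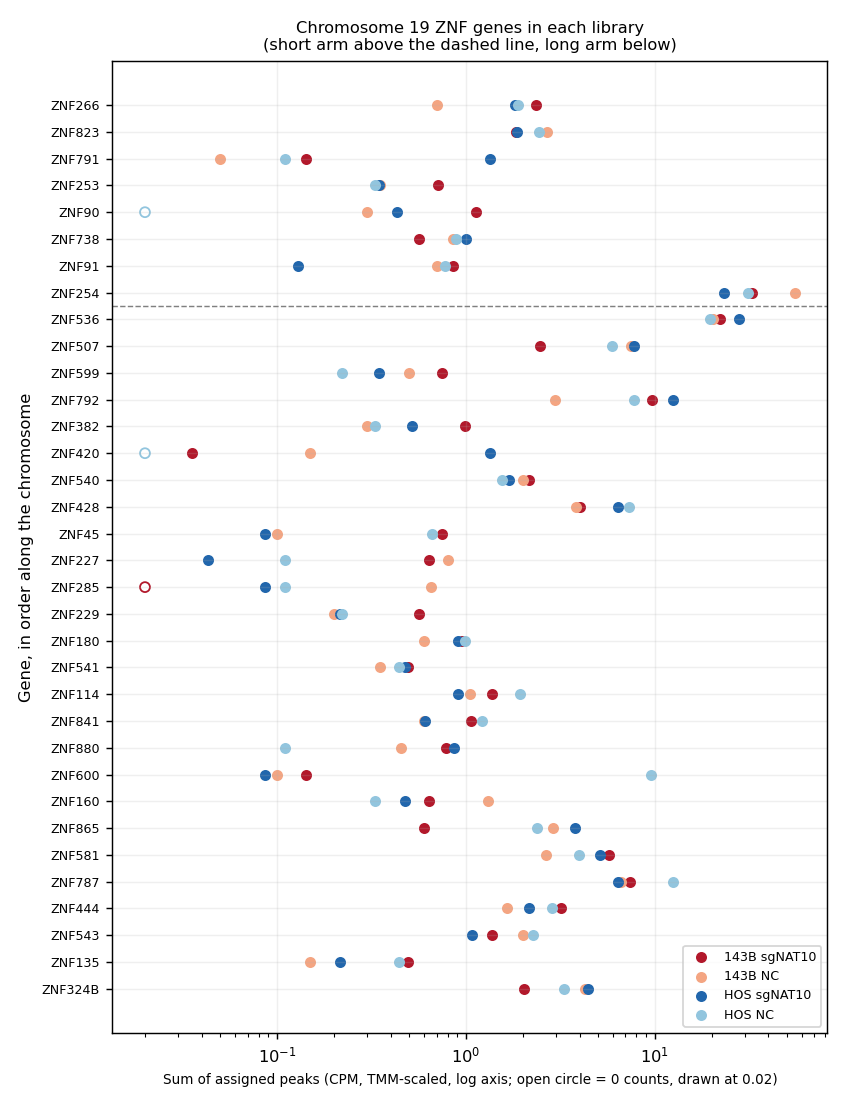
CPM after TMM scaling (log axis) of the ZNF genes of chromosome 19 in the 4 libraries, ordered along the chromosome; open circles are 0 counts, drawn at the left edge. ZNF254 holds most of the short-arm counts in every library, and ZNF600 is high in HOS NC alone.

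On the long arm, ZNF536 had the most peaks, 16 over a gene of 488 kb on the plus strand. It encodes a zinc finger protein known to hold back neuronal differentiation. Summed over its peaks it had 622 counts in 143B sgNAT10 and 404 in 143B NC, and 648 in HOS sgNAT10 and 354 in HOS NC. The shifts were 0.12 [-0.06, 0.31] and 0.52 [0.33, 0.71], and the fit across lines gave 0.32 (edgeR adjusted p = 0.985). The gene made up 31.3% of long-arm member counts in 143B sgNAT10 and 31.7% in 143B NC, and 32.4% in HOS sgNAT10 and 22.7% in HOS NC.

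Within ZNF536 the 143B shift differed along the gene. Over all peaks, 58.0% were higher in 143B sgNAT10. All 6 peaks at 56.6 to 113 kb from the gene start were lower in the library labelled sgNAT10, and together had 123 counts there and 199 in 143B NC, a shift of -1.18 [-1.53, -0.86]. Of the 10 peaks at 141 to 475 kb, 9 were higher, and together they had 499 counts in 143B sgNAT10 and 205 in 143B NC, a shift of 0.78 [0.55, 1.03]. In HOS the upstream peaks had 351 counts in sgNAT10 and 168 in NC (0.71 [0.44, 0.99]), and the downstream peaks had 297 and 186 (0.32 [0.05, 0.60]). The division at 130 kb was chosen after the values were seen, and the difference was not tested. The 4 upstream peaks from 61.9 to 113 kb were 223 to 344 bp wide, wider than most member peaks. On other protein-coding genes, peaks of at least 200 bp had a negative median shift in 143B, as given below. The upstream peaks of 108 and 129 bp had 143B shifts of -1.05 and -0.25, and the downstream peaks of 329 and 500 bp had 0.40 and 0.85. The part of width was not tested. The highest peak, 500 bp wide at 183 kb, had 225 counts in 143B sgNAT10 and 88 in 143B NC, and 89 in HOS sgNAT10 and 73 in HOS NC.

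**Figure D4:**
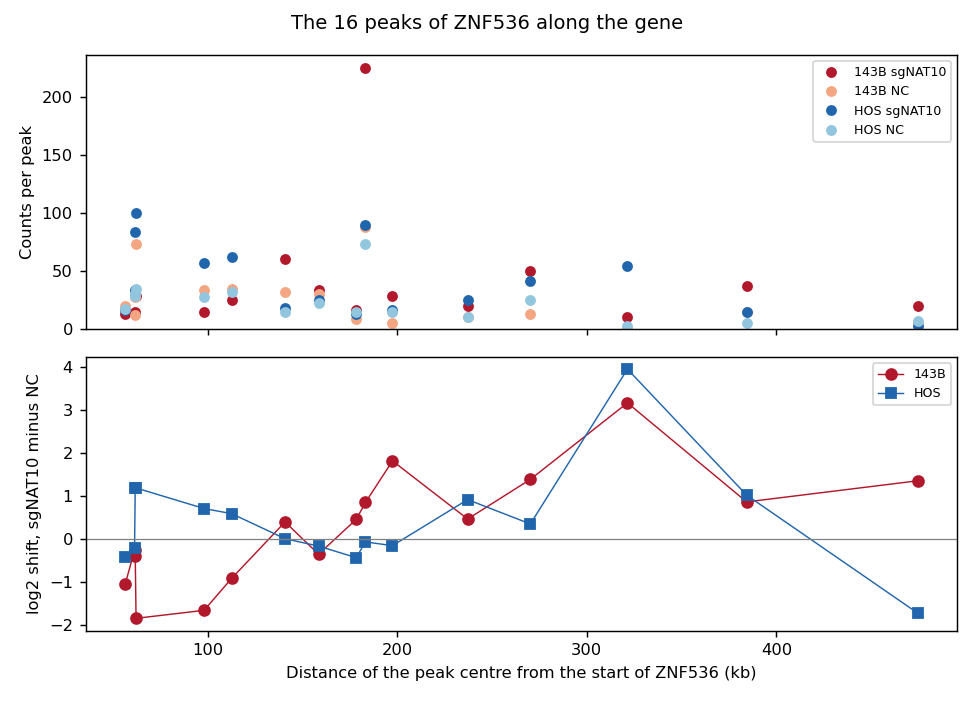
Counts per peak (top) and log2 shift, sgNAT10 minus NC (bottom), of the 16 ZNF536 peaks against distance from the gene start in kb. Counts are for the 4 libraries, and shifts for 143B and HOS. The 6 peaks under 130 kb are all below 0 in 143B, and 9 of the 10 beyond it are above 0.

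ZNF792, a KRAB zinc finger gene of L1, was the long-arm gene whose counting intervals lay above 0 in both lines. It had 272 counts in 143B sgNAT10 and 59 in 143B NC, and 289 in HOS sgNAT10 and 140 in HOS NC. Both sgNAT10 libraries were above both NC libraries, with shifts of 1.69 [1.30, 2.14] and 0.69 [0.40, 0.996]; the fit gave a log2 fold change of 1.19 (edgeR adjusted p = 0.985), below that of ZNF880 in L5 (1.64, edgeR adjusted p = 0.985). ZNF599, also in L1, had 21 and 10 counts in 143B sgNAT10 and NC, and 8 and 4 in HOS sgNAT10 and NC, too few to exclude 0. In L2, ZNF382 had 28 and 6 counts in 143B sgNAT10 and NC (1.59 [0.42, 3.29]), and 12 and 6 in HOS sgNAT10 and NC (0.59 [-0.88, 2.35]). ZNF420, a KRAB protein known to restrain p53, had 1 count in 143B sgNAT10 and 3 in 143B NC. In HOS it had 31 in sgNAT10 against 0 in NC, 8.10-fold higher with the NC count set to the floor of 3. The counting interval of its HOS shift began at 2.63. Its locus overlaps LOC105372390.

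In L4, ZNF428 had 114 counts in 143B sgNAT10 and 76 in 143B NC, and 147 in HOS sgNAT10 and 132 in HOS NC, and neither shift (0.09 and -0.19) was beyond counting error. ZNF45 had 21 counts in 143B sgNAT10 against 2 in 143B NC, but 2 in HOS sgNAT10 against 12 in HOS NC. Its shifts of 2.45 [0.86, 6.03] and -2.43 [-6.14, -0.77] thus ran in opposite directions, and its locus overlaps ZNF45-AS1. ZNF285 had 0 counts in 143B sgNAT10 and 13 in 143B NC, with 2 counts in each HOS library. With the 143B sgNAT10 count set to the floor of 3 it was 6.12-fold lower there. The counting interval of its 143B shift ended at -2.11. ZNF180 and ZNF229 had 12 to 27 and 4 to 16 counts per library, with no interval beyond 0.

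In L5, ZNF600 had 4 counts in 143B sgNAT10 and 2 in 143B NC, and 2 in HOS sgNAT10 against 172 in HOS NC. The HOS shift of -6.18 [-9.83, -4.90] was the lowest of all 9098 genes. This single peak was 95 bp wide, and of the 99 peaks of that width in the whole table, 97.0% had their highest CPM in HOS NC. ZNF880 had 22 and 9 counts in 143B sgNAT10 and NC, and 20 and 2 in HOS sgNAT10 and NC, with shifts of 0.74 [-0.38, 2.09] and 2.55 [0.93, 6.11]. ZNF841 had 30 and 12 counts in 143B sgNAT10 and NC, and 14 and 22 in HOS sgNAT10 and NC. ZNF160, reported to repress TLR4, had 18 and 26 counts in 143B sgNAT10 and NC (-0.98 [-1.98, -0.11]), and 11 and 6 in HOS sgNAT10 and NC (0.47 [-1.04, 2.24]).

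In L6, 3 of 7 genes were higher in sgNAT10 in 143B and lower in HOS, and 2 were the reverse, where 26.9% and 20.7% of all genes were. ZNF787 had 209 counts in 143B sgNAT10 and 133 in 143B NC, and 147 in HOS sgNAT10 and 227 in HOS NC, with shifts of 0.15 [-0.17, 0.48] and -0.97 [-1.29, -0.67]. ZNF581 had 161 and 53 counts in 143B sgNAT10 and NC (1.09 [0.65, 1.58]), and 118 and 72 in HOS sgNAT10 and NC (0.36 [-0.07, 0.81]). ZNF444, a SCAN domain protein, had 90 and 33 counts in 143B sgNAT10 and NC (0.93 [0.36, 1.57]), and 50 and 52 in HOS sgNAT10 and NC (-0.40 [-0.998, 0.18]). These 3 genes carried the peaks at gene ends. ZNF865 was among the reverse cases, with 17 counts in 143B sgNAT10 and 58 in 143B NC (-2.19 [-3.14, -1.47]), and 87 in HOS sgNAT10 and 43 in HOS NC (0.66 [0.12, 1.23]). ZNF324B had 57 and 85 counts in 143B sgNAT10 and NC (-1.06 [-1.58, -0.57]), and 102 and 60 in HOS sgNAT10 and NC (0.41 [-0.06, 0.90]). ZNF543 had 39 and 40 counts in 143B sgNAT10 and NC, and 25 and 41 in HOS sgNAT10 and NC, where the shift was -1.03 [-1.84, -0.31].

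Outside the clusters, ZNF507 had 70 counts in 143B sgNAT10 and 149 in 143B NC, and 179 in HOS sgNAT10 and 108 in HOS NC. Its shifts were -1.57 [-2.02, -1.17] and 0.38 [0.03, 0.74]. ZNF114 had 39 and 21 counts in 143B sgNAT10 and NC, and 21 and 35 in HOS sgNAT10 and NC, where the shift was -1.05 [-1.94, -0.27]. ZNF541, known from mouse as a regulator of meiosis in the testis, had 7 to 14 counts per library.

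As sums, the arms differed mainly through ZNF254. Short-arm members together had 1135 counts in 143B sgNAT10 and 1216 in 143B NC, and 698 in HOS sgNAT10 and 681 in HOS NC, with shifts of -0.60 [-0.72, -0.48] and -0.32 [-0.47, -0.16]. Without the highest ZNF254 peak the sums were 249 and 132 in 143B and 188 and 150 in HOS, and the shifts were 0.42 [0.11, 0.73] and -0.03 [-0.34, 0.29]. Long-arm members had 1985 counts in 143B sgNAT10 and 1276 in 143B NC, and 1997 in HOS sgNAT10 and 1558 in HOS NC, with shifts of 0.14 and 0.01. Without ZNF536 they had 1363 and 872 counts in 143B and 1349 and 1204 in HOS, with shifts of 0.15 and -0.19. The median over genes, in which ZNF254 counts once, was 0.60 and 0.01 on the short arm, and 0.37 and 0.04 on the long arm. The short-arm minus long-arm difference in medians was 0.23 in 143B over all 34 genes and -0.52 over the 27 that passed the count filter, so its sign turned with the filter.

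By cluster, L1 was higher in sgNAT10 in both lines, with shifts of 1.58 [1.21, 1.99] and 0.69 [0.40, 0.99], mostly through ZNF792. S4 was lower in both, with -0.68 and -0.40, through ZNF254. L5 had -2.43 in HOS, where ZNF600 supplied 172 of the 202 NC counts. L4 and L6 had 0.17 and 0.04 in 143B and -0.28 and -0.26 in HOS.

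Peak width moved with library and with shift. Over all peaks, 4 widths occurred far more often than their neighbours, and peaks of each mostly had their highest CPM in 1 library: 98 bp in 143B NC (73.2% of 1200), 104 bp in HOS sgNAT10 (76.6% of 1130), 108 bp in 143B sgNAT10 (61.4% of 5300), and 95 bp as above. Of the member peaks, 22 of 53 (41.5%) had 1 of these widths, against 16.8% on other protein-coding genes of chromosome 19 and 24.6% over all peaks. On the short arm 8 of 11 did, and on the long arm 14 of 42. ZNF791, ZNF420, ZNF865 and 1 ZNF536 peak were 104 bp wide, and all 4 peaks were highest in HOS sgNAT10. The 14 member peaks of 108 bp were less uniform: 143B sgNAT10 was highest in 7 of them, HOS NC in 6 and 143B NC in 1. They lay in ZNF266, ZNF90, ZNF91, ZNF254, ZNF536, ZNF599, ZNF45, ZNF180, ZNF541, ZNF114, ZNF543 and ZNF135. Of these genes, ZNF90, ZNF254 and ZNF536 also had peaks of other widths. ZNF823, ZNF738 and ZNF285 were 98 bp wide, of which 2 were highest in 143B NC and 1 in HOS sgNAT10. The part of these widths in the results was not tested, and the pattern was found after the values were seen. Without them 18 genes were left, whose median was 0.44 in 143B and 0.24 in HOS.

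**Figure D5:**
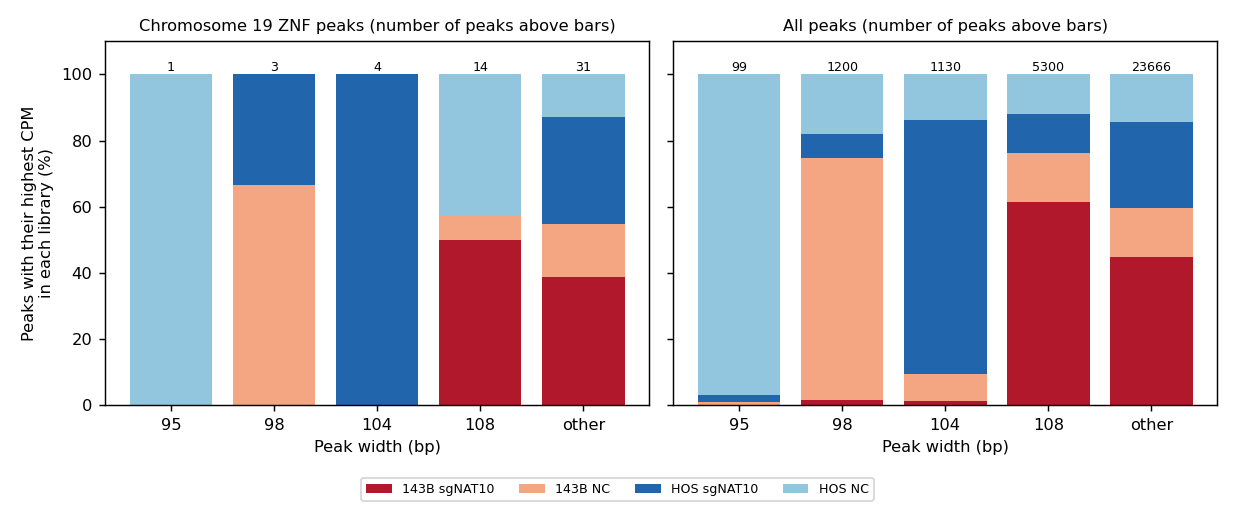
Share of peaks (percent) whose highest CPM fell in each library, by peak width in bp, for the ZNF peaks of chromosome 19 and for all peaks. All 4 member peaks of 104 bp were highest in HOS sgNAT10, as were 76.6% of all peaks of that width.

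The 11 member peaks of at least 200 bp, all on the long arm, had a median of -0.38 in 143B and of 0.30 in HOS, where other protein-coding genes had -0.88 and 0.48 at that width. ZNF536 held 6 of the 11, and the other 5 had medians of 0.09 and 0.12, so the negative value in 143B rests on that gene. The 32 member peaks of up to 120 bp had 0.50 and -0.14, against 0.20 and 0.02.

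Between the lines, no member passed either. The edgeR line term called 0 of 27 genes (adjusted p 0.765 to 0.996), with 1 at an unadjusted p under 0.05 and backgrounds of 0.0% higher and 0.0123% lower in 143B. That member was ZNF227, named after its values were seen, with 18 and 16 counts in the sgNAT10 and NC libraries of 143B, and 1 and 2 in those of HOS. Its fitted log2 fold change, 143B over HOS, was 3.20 ± 1.01 SE (edgeR adjusted p = 0.765). Among sgNAT10 libraries 22 of 34 members were higher in 143B than in HOS, where 55.7% of all genes were, and among NC libraries 15 were, where 46.7% were.

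Of the genes whose products work with KRAB zinc finger proteins, 13 of 30 had a peak and 0 were called by edgeR. In 143B 6 were higher and 7 lower in sgNAT10 with a median shift of -0.05, and in HOS 2 were higher and 11 lower with a median of -0.73, where all genes had 0.28 and 0.07. Of all genes, 59.4% were higher in 143B and 52.8% in HOS. The partner genes had a median mean count of 423.75, against 54.75 over all genes. Peaks of protein-coding genes other than members with a mean count of at least 50 had medians of -0.68 in 143B and -0.16 in HOS. The part of count was not tested. TRIM28, the co-repressor itself, had 170 counts in 143B sgNAT10 and 297 in 143B NC, and 190 in HOS sgNAT10 and 601 in HOS NC. Its shifts were -1.30 [-1.58, -1.03] and -2.01 [-2.26, -1.77], and the fit gave -1.66 ± 0.84 SE (edgeR adjusted p = 0.985). DNMT1, the maintenance DNA methyltransferase, had shifts of -1.47 and -1.004. EHMT1, a histone H3K9 methyltransferase, had -2.18 and 0.49, and UHRF1, which guides DNMT1 to replicating DNA, had 2.32 and -1.14. CBX3, an HP1 protein, had 0.50 and -0.73. Of 20 zinc finger genes of chromosome 19 with other symbols, 4 had a peak (ZBTB7A, ZIM3, ZSCAN1 and ZSCAN18), with median shifts of -0.52 and -0.13.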

How the data were processed

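Per the labels, mRNA was selected on poly(A) beads, fragmented and captured with an anti-ac4C antibody. The deposited tables hold raw counts per peak, which the authors made; the submitters' processing notes name FastQC, STAR, SAMtools, deepTools and GRCh38, without a role, with peak calling, strand and multi-mapping settings not given in the sources used here. Columns name line and genotype only and were taken as acRIP because the tables are named RIP; 7 blank columns were left out. The 4 libraries (1 per line and genotype, 20107718 to 24785306 counts) carry no culture replicates. The p-values of the genotype and line terms rest on 1 residual degree of freedom, with spread estimates shared across genes. That residual is how far the difference between sgNAT10 and NC differed between the lines.

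Peaks were matched to the RefSeq GRCh38.p14 gene table and summed per gene. Positions are printed as the tables give them. Counts were tested with edgeR 4.0.16 (quasi-likelihood, line and genotype terms, TMM, filterByExpr with minimum count 10 and total 15, Benjamini-Hochberg over all genes, threshold 0.05), with DESeq2 1.42.0 and limma 3.58.1 as alternatives, in R 4.3.3. Within a line, where there is 1 library each, shifts carry exact 95% conditional binomial intervals. The scripts were tested on simulated data. That checked the code, not the power of the test at the spread of these data. 3 peaks that span 2 ZNF genes were not assigned.

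Among the 27 members with at least 40 counts over the 4 libraries, named genes were the 10 of highest mean count, up to 6 per direction pattern by size, and the 3 with most peaks; other genes were named after their values were seen. Members and lists were chosen with earlier results of these data known. Marker and KRAB-partner lists came from general knowledge. A width counted as far more frequent than its neighbours when at least 50 peaks had it, at least 5 times the number at either adjacent width.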

Additional observations from a re-analysis of the deposited data

Results flagged for a closer look

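In 3 of 34 members the counting intervals excluded 0 in opposite directions in the lines, as they did in 20.1% of all genes. The 143B shift minus the HOS shift was -1.95 for ZNF507, 4.87 for ZNF45 and -2.84 for ZNF865. With 1 library per line and genotype these differences were not tested.

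A peak outside the comparisons because it overlaps both ZNF69 and ZNF763 had 21 counts in 143B sgNAT10 and 5 in 143B NC, and 15 in HOS sgNAT10 and 3 in HOS NC, shifts of 1.42 and 1.72. It was higher in sgNAT10 in both lines. The difference was not tested.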

How the results depend on the processing

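With 9 other settings of scaling, filter, block and tool, the count of called genes stayed at 0 for the genotype and the line term, and that of called peaks for the genotype term. Over the 27 genes that passed the filter the median shift in HOS was 0.10, and it was 0.62 with library totals alone, where library totals add up to 0.58 to HOS shifts; this turned the HOS sign of ZNF254, ZNF266, ZNF428, ZNF444 and ZNF823, and totals without the rRNA block that of ZNF266. DESeq2-type factors gave -0.04 in HOS. The median in 143B ranged over 0.11 to 0.59. The short-arm minus long-arm difference ranged over -0.92 to 0.78 in 143B and -0.80 to 0.03 in HOS, so its direction was not settled; a mean count of at least 50 left 1 short-arm gene, and peaks near gene ends left none. Dropping a library leaves the fit with line and genotype terms no residual degrees of freedom, so no such test was made. The line block paired sgNAT10 with NC within each line, and without the block 0 were called too. The columns carry no replicate numbers to pair by. Low counts limited most genes: 42 of 53 peaks had a mean under 50, as did 69.2% of all peaks.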

Other observations

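Another 2 peaks spanned a pair of ZNF genes. The peak over ZNF565 and ZNF146 had 74 counts in 143B sgNAT10 and 34 in 143B NC, and 46 in HOS sgNAT10 and 55 in HOS NC, shifts of 0.61 and -0.60. The peak over ZNF540 and ZNF571 had 0 counts in 143B sgNAT10 and 13 in 143B NC, and 0 in HOS sgNAT10 and 1 in HOS NC, so it was lower in sgNAT10 in 143B, while the HOS counts are under the floor of 3.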
